A study of Mus musculus with 16 samples.

Results

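The SR proteins, the CLK kinases that phosphorylate them and the RBM4 proteins set how many pre-mRNAs are spliced. Described here are the transcripts of 10 such genes in mouse macrophages that were given apoptotic cells to engulf. The genes were taken by name and form 3 groups by role: the SR proteins Srsf1, Srsf2, Srsf3, Srsf5, Srsf6 and Srsf7, the kinases Clk1 and Clk4, and the RNA-binding proteins Rbm4 and Rbm4b. All 10 were found among the 55416 gene IDs of the count table, and all 10 were among the 14168 genes with enough counts to be tested.

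The cells were macrophages of the Hoxb8 line, labelled as from bone marrow. Hoxb8 lines are progenitors held in an immature state by a Hoxb8 transgene and turned into macrophages in culture. All 4 groups were this same line, and the labels name no other genotype, clone or strain. They were macrophages alone, and macrophages after 45, 90 or 180 min with apoptotic Jurkat cells, a human T cell line, with 4 libraries each and 16 in all. Total RNA was depleted of ribosomal RNA and sequenced with a strand-marking kit. Whether replicate libraries stem from different cultures is not in the labels, so the p-values measure the spread between these libraries, which may be technical. No group of macrophages alone was kept for each time, so exposure to apoptotic cells and time in culture cannot be told apart.

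SR proteins carry RNA recognition motifs and a tail rich in arginine and serine. They bind exons and recruit the splicing machinery to nearby splice sites. CLK and SRPK kinases phosphorylate the tail. Phosphorylation by CLK kinases moves SR proteins out of nuclear speckles and into active splicing. Many SR genes limit their own output through exons with a premature stop codon, whose transcripts are destroyed by nonsense-mediated decay. Clk1 and Clk4 transcripts are known to be held in the nucleus in part as forms that still contain introns. In the GENCODE M21 annotation, 2 of 13 Clk1 transcripts and 3 of 14 Clk4 transcripts were classed as decay targets, and 7 of each gene's transcripts as retaining an intron. For Srsf3 the annotation gave 2 decay targets and 4 retained-intron forms among 10 transcripts. The counts are per gene, so a change in such forms and a change in the coding transcript cannot be told apart.

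Most of these transcripts were higher at 90 and 180 min than in macrophages alone, and the order among them differed little from group to group. Levels are given in CPM, a gene's counts per M (mega) of library counts after the libraries were scaled to each other. The 6 SR genes summed to 498 ± 26.7 CPM (SD, n = 4) in macrophages alone, 548 ± 10.7 at 45 min, 717 ± 41.7 at 90 min and 774 ± 25.6 at 180 min. In bulk RNA, a larger share of a transcript in the pool and a smaller amount of the remaining RNA cannot be told apart.

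Tests were edgeR's quasi-likelihood test with Benjamini-Hochberg adjustment over all tested genes, and a gene is said to have risen or fallen where its adjusted p was under 0.05. At 45 min, 3 of the 10 genes had risen (Srsf2, Srsf5 and Srsf6) and 1 had fallen (Rbm4), against 4.69% higher and 6.11% lower among all tested genes. At 90 min, 8 had risen and none had fallen, against 11.1% and 9.97%. At 180 min the same 8 had risen, against 15.1% higher and 16% lower. The 8 were the 6 SR genes, Clk1 and Clk4. The 10 genes were chosen with earlier results of these data known. Counts of the 10, here and below, therefore describe these genes and are no test of SR genes as a class. The median log2 change of the 10 genes was 0.04, 0.36 and 0.52 at the 3 times, beside 0.00, 0.00 and 0.01 over all tested genes. These 3 comparisons share the libraries of macrophages alone. The libraries did not overlap with those of macrophages alone for 3 of the 10 genes at 45 min, 7 at 90 min and 8 at 180 min, and for 16.9%, 21.2% and 28.6% of all tested genes.

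**Figure D1:**
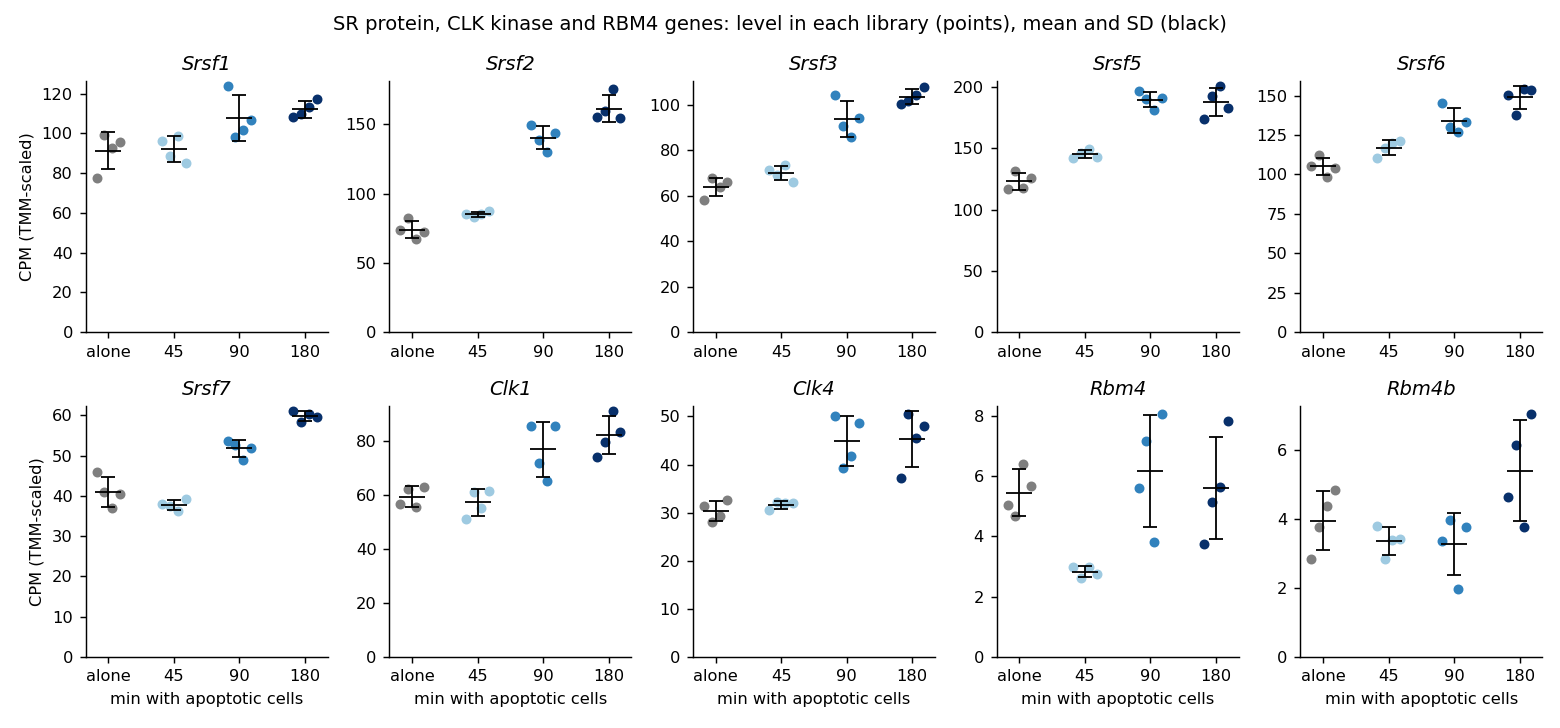
Level of each of the 10 genes (CPM, linear axis from 0) in macrophages alone and at 45, 90 and 180 min. Points are the 4 libraries of a group and black bars the mean and SD. Srsf2 lies between 67.5 and 82.2 CPM alone and between 155 and 176 at 180 min, and Rbm4 lies under 3 CPM in each 45 min library.

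Srsf2, also known as SC35, is an SR protein of nuclear speckles that activates exons and also acts in transcription elongation. It measured 67.5, 72.6, 74.0 and 82.2 CPM in the libraries of macrophages alone and 82.8, 85.2, 85.5 and 87.4 at 45 min. At 90 min it measured 129.9, 139, 144 and 149 CPM, and at 180 min 155, 155, 159 and 176. The 4 groups did not overlap: each later time lay above the whole range of the earlier one. The log2 change against macrophages alone was 0.20 (SE 0.06, edgeR adjusted p = 0.00911) at 45 min, 0.92 (SE 0.06, adjusted p = 1.67e-20) at 90 min and 1.12 (SE 0.06, adjusted p = 3.97e-25) at 180 min, the last being 2.18-fold. Of the 8 genes that had risen, its change was the largest at 90 and at 180 min. The small rise at 45 min was lost when each library's trend of gene level with exon length and GC content was removed (log2 change 0.15, adjusted p = 0.0849).

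Srsf5, known as SRp40, and Srsf6, known as SRp55, bind enhancers within exons. Srsf5 measured 117, 118, 126 and 132 CPM in macrophages alone, 142, 143, 147 and 149.7 at 45 min, 181, 189.8, 191 and 196 at 90 min and 174, 183, 193 and 201 at 180 min. Its libraries were higher at 45 min than alone and higher again at 90 min, while those of 90 and 180 min overlapped. The log2 change against macrophages alone was 0.24 (SE 0.05, edgeR adjusted p = 0.000349) at 45 min, 0.62 (SE 0.05) at 90 min and 0.61 (SE 0.05) at 180 min, and from 90 to 180 min it was -0.01 (SE 0.05, adjusted p = 0.914). Srsf6 ranged from 98.7 to 112 CPM alone, 111 to 121 at 45 min, 127 to 145 at 90 min and 138 to 154 at 180 min. Its log2 change was 0.16 (SE 0.05, adjusted p = 0.0378), 0.35 (SE 0.05) and 0.51 (SE 0.05). The Srsf6 libraries of 45 min and macrophages alone overlapped, and that call was lost when any of 5 of their 8 libraries was left out (log2 change 0.14 to 0.17, adjusted p 0.0515 to 0.105). The 5 were libraries 1, 3 and 4 of macrophages alone and 3 and 4 of 45 min.

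Srsf3 and Srsf7 also take part in export of mRNA and in choice of its 3′ end. Srsf3 measured 58.2, 63.8, 65.9 and 67.6 CPM alone, 65.9, 69.3, 71.4 and 73.3 at 45 min, 85.9, 90.8, 94.3 and 104 at 90 min and 100.3, 102, 104 and 108 at 180 min. The 45 min libraries overlapped with those of macrophages alone, and those of 90 and 180 min lay above both. Its log2 change was 0.13 (SE 0.06, edgeR adjusted p = 0.154) at 45 min, 0.55 (SE 0.06, adjusted p = 4.43e-11) at 90 min and 0.70 (SE 0.06, adjusted p = 2.66e-15) at 180 min. With the trend on length and GC content removed, the 45 min value of Srsf3 was 0.25 and passed the threshold (adjusted p = 0.000796). Srsf7 measured 36.9, 40.3, 41.0 and 45.9 CPM alone and 36.3, 37.4, 37.9 and 39.3 at 45 min. At 90 min its 4 values lay between 48.9 and 53.7 CPM and at 180 min between 58.4 and 61.1, so neither later group overlapped with any earlier one. The log2 change of Srsf7 was -0.12 (SE 0.07, adjusted p = 0.279), 0.33 (SE 0.07) and 0.54 (SE 0.07) at the 3 times.

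Srsf1, known as ASF or SF2 and among the SR proteins described earliest, had the smallest changes at 90 and 180 min of the 6. It ranged from 77.7 to 99.1 CPM in macrophages alone, 85.1 to 98.9 at 45 min, 98.2 to 124 at 90 min and 108 to 118 at 180 min. Against macrophages alone, its libraries lay wholly above at 180 min and overlapped at 45 and 90 min. Its log2 change was 0.01 (SE 0.06, edgeR adjusted p = 0.934) at 45 min, 0.24 (SE 0.06, adjusted p = 0.00352) at 90 min and 0.30 (SE 0.06, adjusted p = 0.000103) at 180 min. The 90 min call was lost without the lowest library of macrophages alone, number 1 (log2 change 0.15, adjusted p = 0.0768), and without the highest of 90 min, number 1 (0.15, adjusted p = 0.0816).

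Clk1 and Clk4 are close relatives that phosphorylate SR proteins. Clk1 measured 55.6, 56.5, 62.4 and 63.1 CPM alone, 51.2, 55.4, 61.2 and 61.6 at 45 min, 65.1, 71.9, 85.5 and 85.7 at 90 min and 74.3, 79.8, 83.3 and 91.2 at 180 min. Its 90 and 180 min libraries overlapped with each other and lay above every library of macrophages alone and of 45 min. The log2 change was -0.05 (SE 0.07, edgeR adjusted p = 0.758), 0.38 (SE 0.07, adjusted p = 4.3e-05) and 0.47 (SE 0.07, adjusted p = 1.64e-07). Clk4 measured 28.0, 29.3, 31.3 and 32.6 CPM alone, 30.5, 31.9, 31.9 and 32.3 at 45 min, 39.2, 41.8, 48.6 and 50.1 at 90 min and 37.2, 45.6, 47.9 and 50.5 at 180 min. It showed the same split, with the 2 earlier groups overlapping and the 2 later groups above them. The log2 change of Clk4 was 0.06 (SE 0.08, adjusted p = 0.711), 0.57 (SE 0.08, adjusted p = 1.57e-07) and 0.58 (SE 0.08, adjusted p = 3.04e-08). The coding sequences of the pair were 74.4% identical over 1432 aligned bases, with no identical run longer than 34 bases, and 0.0711% of the 50-base windows of Clk1 and 0.177% of those of Clk4 occurred in any other annotated gene.

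**Figure D2:**
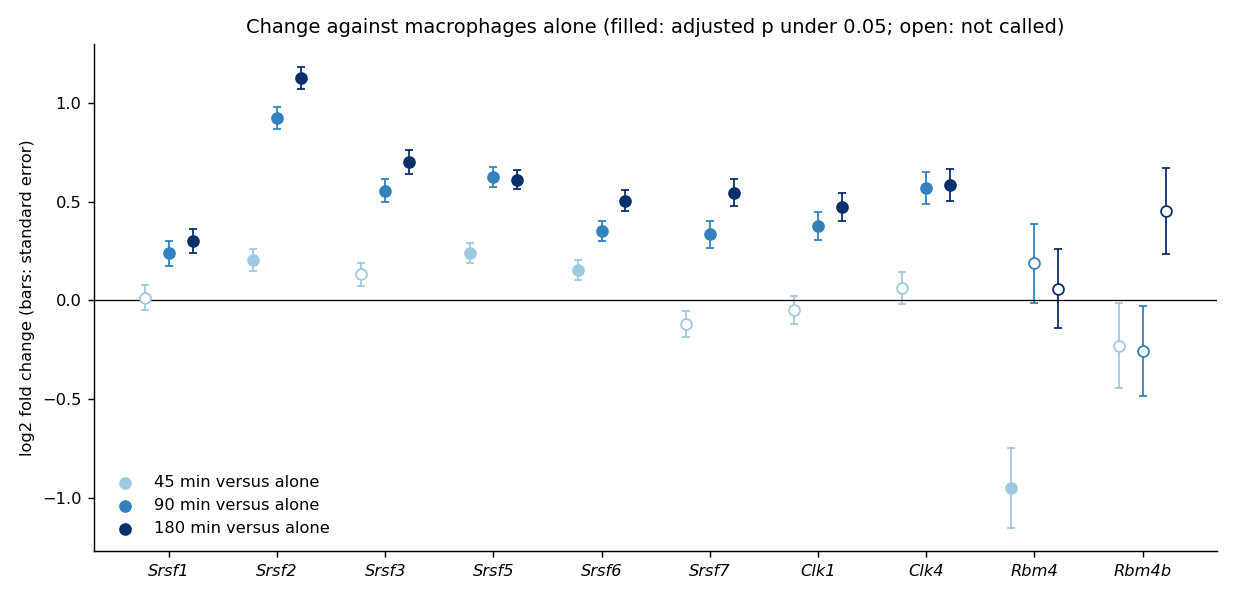
Log2 fold change of the 10 genes against macrophages alone at 45, 90 and 180 min, with bars for the standard error; filled points had an adjusted p under 0.05 and open points did not. The 6 SR genes and both kinases are filled at 90 and 180 min, with Srsf2 highest at 1.12, and Rbm4 at 45 min is the lowest point at -0.95.

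Rbm4 followed another course. It is an RNA-binding protein that regulates alternative splicing and, in the cytoplasm, translation. Rbm4 measured 4.66, 5.05, 5.69 and 6.42 CPM in macrophages alone and 2.62, 2.74, 2.97 and 2.98 at 45 min. It then measured 3.82, 5.62, 7.16 and 8.07 CPM at 90 min and 3.75, 5.15, 5.65 and 7.84 at 180 min. Every 45 min library lay below every library of the other 3 groups, and the later groups spread across the range of macrophages alone and beyond it. The counts behind these values were low, since single libraries held between 54 and 186 Rbm4 counts. The log2 change was -0.95 (SE 0.20, 0.518-fold, edgeR adjusted p = 0.000638) at 45 min, 0.19 (SE 0.20, adjusted p = 0.562) at 90 min and 0.06 (SE 0.20, adjusted p = 0.861) at 180 min. From 45 to 90 min it rose by 1.14 (SE 0.21, 2.20-fold, adjusted p = 1.63e-05). The fall at 45 min passed the threshold in each of the 16 alternative analyses that tested the gene, with log2 changes from -1.13 to -0.84 and adjusted p from 8.22e-05 to 0.00732.

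Rbm4b lies beside Rbm4 on chromosome 19 and encodes a near relative. It measured 2.85, 3.76, 4.38 and 4.83 CPM alone, 2.83, 3.38, 3.41 and 3.80 at 45 min, 1.98, 3.36, 3.77 and 3.96 at 90 min and 3.78, 4.63, 6.16 and 7.04 at 180 min. The groups overlapped in every pair, and the low value at 90 min came from library 3, which also held the lowest Rbm4 value of that group. Its log2 change against macrophages alone was -0.23 (SE 0.22, edgeR adjusted p = 0.598), -0.26 (SE 0.23, adjusted p = 0.473) and 0.45 (SE 0.22, adjusted p = 0.111). Without library 3 of 180 min the last value was 0.60 and passed (adjusted p = 0.0419). Rbm4b rose from 45 to 180 min by 0.68 (SE 0.22, adjusted p = 0.0101), a call lost without library 4 of 180 min (0.50, adjusted p = 0.103).

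The 2 genes share much of their coding sequence, which bears on how reads can be assigned. Their coding sequences were 86.1% identical over 1071 aligned bases, and the initial 425 coding bases were identical without a break. The stretch where that identity ends is given here for both genes, coding bases 396 to 515 of the GENCODE M21 transcripts, with the 15 bases that differ in capitals; the 30 bases at its start belong to the identical run.
Rbm4: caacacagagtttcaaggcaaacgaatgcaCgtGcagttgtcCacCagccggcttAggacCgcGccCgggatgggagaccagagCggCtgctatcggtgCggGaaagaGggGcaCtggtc
Rbm4b: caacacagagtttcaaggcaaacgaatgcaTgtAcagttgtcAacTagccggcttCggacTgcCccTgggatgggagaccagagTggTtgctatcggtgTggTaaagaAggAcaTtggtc

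A read that falls wholly within the identical run fits both genes, and a read that reaches a capital can be told apart. Beyond this pair, Rbm4 shares 2990 of its 4940 exon bases with Gm21992, a gene model on the same strand, so that 57.5% of the 50-base windows of Rbm4 occurred in that model as well. Of the 50-base windows of Rbm4b, 4.42% occurred in any other annotated gene. Gm21992 averaged 1.89 ± 0.415 CPM alone, 1.29 ± 0.381 at 45 min, 1.69 ± 1.07 at 90 min and 1.29 ± 0.431 at 180 min (SD, n = 4), and no comparison of it passed the test; its log2 change at 45 min was -0.57 (SE 0.38, edgeR adjusted p = 0.398). How the counting treated reads that fit several genes is not given in the sources used here, so the levels of Rbm4 and Rbm4b are uncertain. Rbm4b shares 3069 exon bases with Gm37206, a model on the opposite strand that was singled out after its values were seen. Gm37206 averaged 7.76 ± 1.67 CPM alone and 3.003 ± 0.505 at 45 min, and fell by 1.37 on the log2 scale (SE 0.19, adjusted p = 1.3e-07). It was also lower than alone at 90 min (-0.65, SE 0.19, adjusted p = 0.00777) but did not pass at 180 min (-0.23, SE 0.18). From 45 to 180 min it rose by 1.14 (SE 0.19, adjusted p = 1.94e-06), where Rbm4b rose by 0.68. From 45 to 90 min it rose by 0.72 (SE 0.20, adjusted p = 0.00373), where Rbm4b did not pass (-0.03). The strand setting of the counting is not given either, and the part of reads from the other strand in the Rbm4b counts was not tested.

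Set against each other within each library, the Rbm4 to Rbm4b ratio of counts was 1.77, 1.24, 1.47 and 1.18 in macrophages alone and 0.784, 0.928, 0.878 and 0.801 at 45 min. It was 1.67, 1.81, 1.93 and 2.14 at 90 min and 0.809, 0.836, 1.49 and 1.11 at 180 min. Rbm4 thus had fewer counts than Rbm4b in each 45 min library, and more in each library of macrophages alone and of 90 min. The mean log2 ratio was 0.72 lower at 45 min than alone, 1.15 higher at 90 than at 45 min and 0.87 lower at 180 than at 90 min. Each of these had an exact 2-sided permutation p of 0.0286, the smallest that 4 against 4 libraries can give. The adjusted p was 0.114 over the 12 ratio comparisons made, so none passed. An adjusted p under 0.05 would have needed most of the 12 at that smallest value, so this test could hardly decide on single differences. For Clk1 to Clk4, the mean log2 ratio was 0.97 ± 0.131 alone, 0.85 ± 0.0968 at 45 min, 0.78 ± 0.0997 at 90 min and 0.86 ± 0.166 at 180 min (SD, n = 4), and the smallest exact permutation p of its 6 comparisons was 0.0571. These ratios were chosen after the gene values were seen.

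**Figure D3:**
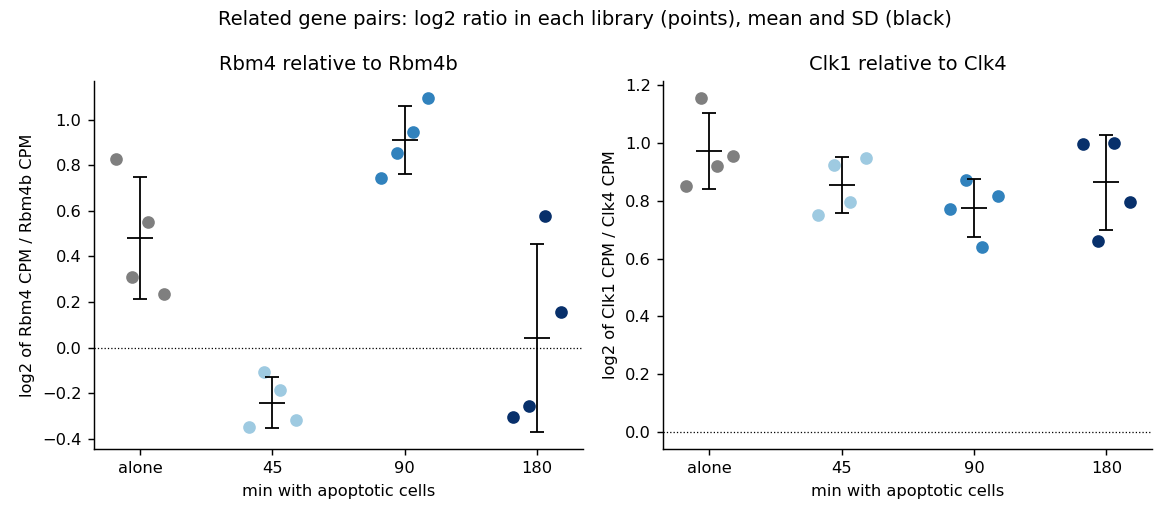
Log2 ratio of the counts of Rbm4 to Rbm4b (left) and Clk1 to Clk4 (right) in each library, with the mean and SD of each group of 4 in black; the dotted line marks equal counts. The Rbm4 to Rbm4b ratio lies below the line in each 45 min library and above it in each 90 min library, while the Clk1 to Clk4 ratio lies above the line in all 16 libraries.

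In the step from 45 to 90 min, 9 of the 10 genes rose and none fell, against 14.8% higher and 13.3% lower among all tested genes, and their median log2 change was 0.42 beside 0.02. The largest were Rbm4 at 1.14, Srsf2 at 0.72 (SE 0.05), Clk4 at 0.50 (SE 0.08) and Srsf7 at 0.46 (SE 0.07), and Rbm4b alone did not pass (-0.03, SE 0.23). The rises of Srsf1 (0.22) and Srsf6 (0.20) in this step did not survive removal of the trend on length and GC content (0.08, edgeR adjusted p = 0.290, and 0.11, adjusted p = 0.0750), that of Srsf1 also without library 4 of 45 min (0.17) or library 1 of 90 min (0.13). From 90 to 180 min, 4 of the 10 rose and none fell, against 4.45% and 6.97%, with a median of 0.12 beside -0.00. They were Srsf2 (0.20, SE 0.05, adjusted p = 0.00716), Srsf6 (0.15, SE 0.05, adjusted p = 0.0405), Srsf7 (0.21, SE 0.07, adjusted p = 0.0298) and Rbm4b (0.71, SE 0.23, adjusted p = 0.0297). This count rested on single libraries: it was 2 without library 1 or library 4 of 180 min and 1 without library 3 of 90 min or library 3 of 180 min. From 45 to 180 min all 10 rose, against 18.3% of tested genes higher and 18% lower, by 0.29 (Srsf1) to 1.01 (Rbm4). The test for any change over the 3 times passed for all 10, against 44.6% of tested genes; for Rbm4b it did not pass without library 2 (adjusted p = 0.0648) or library 4 (adjusted p = 0.194) of 180 min.

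Per kilobase of exon, the order of the 10 genes in macrophages alone was Srsf5 (30.9 CPM per kb), Srsf2 (25.04), Srsf6 (21.9), Srsf1 (15.98), Srsf7 (11.6), Srsf3 (8.09), Clk1 (7.31), Clk4 (5.23), Rbm4 (1.10) and Rbm4b (0.396). The range of Srsf2 overlapped with that of Srsf6 in that group, and the range of Srsf3 with that of Clk1. Both genes of such a pair were measured in the same libraries, and their difference within a library was not tested. By their means, the SR genes stood above the kinases and both above the RBM4 pair in every group. The order was the same at 45 min, where no neighbours overlapped. At 90 min Srsf5 and Srsf2 were level, at 47.6 and 47.5 CPM per kb with overlapping libraries, and Clk1 and Clk4 overlapped too. At 180 min Srsf2 stood at the top with 54.6 CPM per kb (libraries 52.3 to 59.5) and Srsf5 next with 47.1 (43.7 to 50.3). Lengths are unions of annotated exons, from 2958 bases for Srsf2 to 9979 for Rbm4b, and which exons were used was not measured.

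Among the 10, the pair whose 16 centred log2 levels differed least was Srsf3 and Srsf5, with a root mean square difference of 0.10. The next were Srsf5 and Srsf6 and Srsf1 and Srsf6, each at 0.12. Clk1 and Clk4 stood at 0.13 from each other. Rbm4 and Rbm4b were at 0.48 from each other, and no member came nearer than 0.42 to Rbm4. The wider search took in 8299 other genes whose log2 CPM averaged 3 or more, with numbered and clone gene models and mitochondrially encoded genes left out. There the nearest to Srsf2 was Ptger4, the prostaglandin E2 receptor EP4, at 0.08, with log2 changes of 0.35, 1.001 and 1.26 at 45, 90 and 180 min. Nearest to Srsf5 was the long noncoding RNA Tug1 (0.08), then Tnfaip3, the NF-kB inhibitor A20 (0.08), and nearest to Srsf3 was Eps8 (0.09). Srsf6 was nearest to Dusp4, a MAP kinase phosphatase (0.07), then to the SR-related splicing factor Rbm39 (0.07), and Srsf1 to the translation factor Eif4a2 (0.08). Srsf7 was nearest to the Notch ligand Jag1 (0.08). The kinases were nearest to Kctd18 (Clk1, 0.09) and Ttc14 (Clk4, 0.10), and Rbm4b to the fatty acid synthase gene Fasn (0.25). Nearest to Rbm4, though at 0.31, was Xist, the noncoding RNA of the inactive X chromosome, which fell by 0.53 on the log2 scale (SE 0.06) at 45 min. Rbm4 and Rbm4b themselves averaged under a log2 CPM of 3, so no gene at their own level was a candidate. All of these distances are over the same 16 libraries and are descriptions.

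Of 16 other SR and SR-like genes, 15 were tested: 1 had risen at 45 min, 7 at 90 min and 9 at 180 min, and none had fallen against macrophages alone, with medians of -0.06, 0.13 and 0.27. Among all tested genes, 4.69% were higher and 6.11% lower at 45 min, 11.1% and 9.97% at 90 min, and 15.1% and 16% at 180 min. Rsrp1, which encodes a protein with arginine-serine repeats, went from 337 ± 25.5 CPM alone to 540.0 ± 51.0 at 90 min (SD, n = 4), a log2 change of 0.68 (SE 0.05, edgeR adjusted p = 6.98e-16). Tra2b, a sequence-specific exon activator, rose by 0.37 (SE 0.07) at 90 min and 0.42 (SE 0.07) at 180 min, and Tra2a by 0.36 (SE 0.08) and 0.29 (SE 0.08). Srsf11 rose by 0.31 and 0.34 (SE 0.06 each). Srsf10 passed only at 180 min (0.27, SE 0.07). Srsf4 passed at neither, at 0.07 (SE 0.08) and 0.00 (SE 0.08). Srrt, a partner of the nuclear cap-binding complex, was the gene of this list that had risen at 45 min, by 0.20 (SE 0.06).

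A list of 17 genes held other kinases that act on SR proteins, kinases related to those, and the anchoring protein gene Akap17b. Of these, none had risen and 4 had fallen at 45 min, 4 and 4 at 90 min, and 3 and 5 at 180 min, with medians of -0.09, -0.02 and -0.07. The shares of all tested genes were 4.69% higher and 6.11% lower at 45 min, 11.1% and 9.97% at 90 min, and 15.1% and 16% at 180 min. The count of 3 higher at 180 min lies near its share. Clk2 and Clk3, the remaining members of the CLK family, were among those that rose at 90 min, by 0.42 (SE 0.09, edgeR adjusted p = 0.000155) and 0.29 (SE 0.06, adjusted p = 0.000256), and at 180 min by 0.48 (SE 0.09) and 0.22 (SE 0.06). All 4 CLK genes had thus risen at both later times. The cytoplasmic SR kinase gene Srpk1 did not pass at any time, with 0.02 (SE 0.05) at 90 min and 0.07 (SE 0.05) at 180 min, and Srpk2 had fallen at 180 min by 0.20 (SE 0.07, adjusted p = 0.0154). Hipk2 and Hipk1, which encode homeodomain-interacting kinases of the nucleus, had fallen at all 3 times, Hipk2 by 0.38 (SE 0.06) at 45 min and Hipk1 by 0.33 (SE 0.04) at 180 min.

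**Figure D4:**
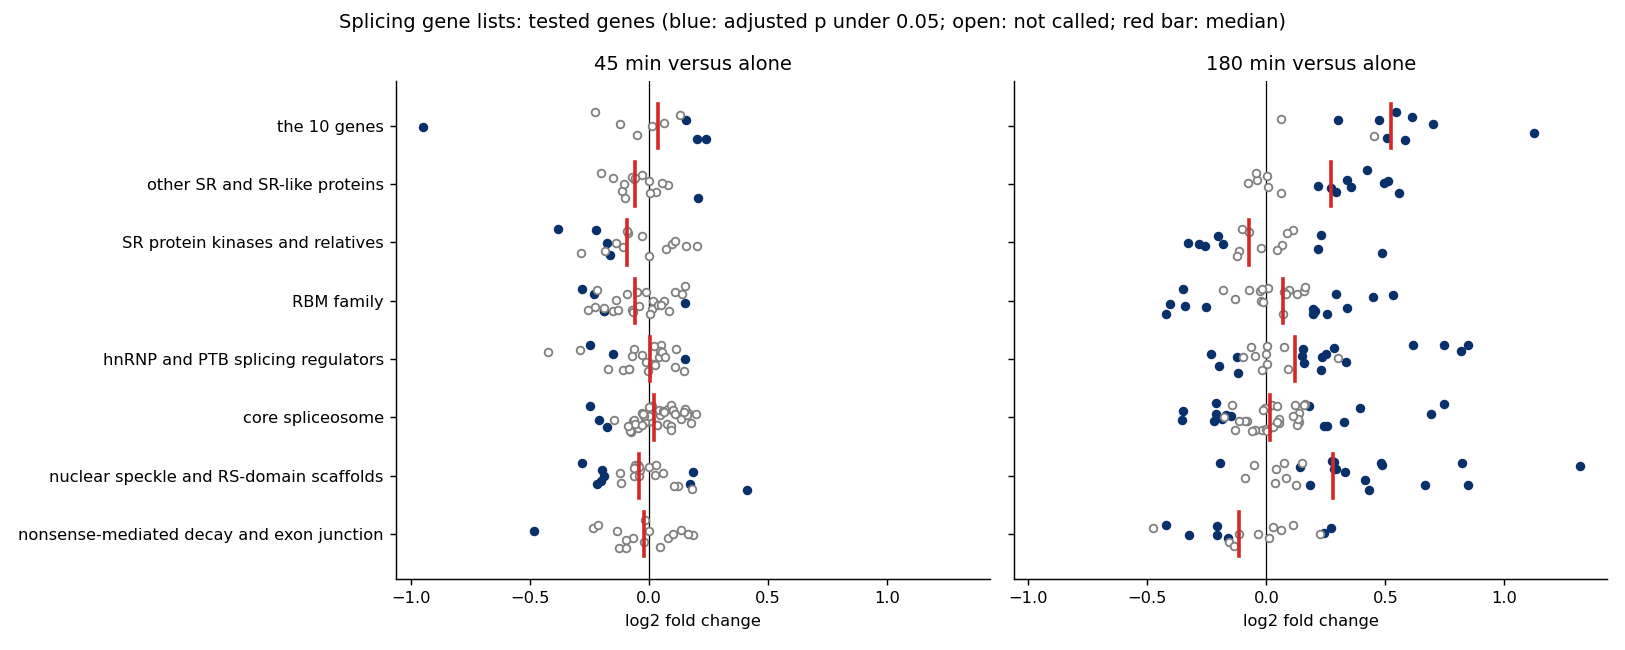
Log2 fold change against macrophages alone at 45 min (left) and 180 min (right) of the 10 genes and of 7 lists of splicing-related genes, 1 point per tested gene; blue points had an adjusted p under 0.05, open points did not, and red bars are medians. At 45 min the medians lie between -0.09 and 0.04, and at 180 min those of the 10 genes (0.52), the speckle list (0.28) and the other SR list (0.27) are the highest.

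The counts of the following lists stand beside shares of all tested genes of 4.69% higher and 6.11% lower at 45 min, 11.1% and 9.97% at 90 min, and 15.1% and 16% at 180 min, and some lie near them. Of 28 tested genes of the RBM family, 1 rose and 4 fell at 45 min, 6 and 3 at 90 min, and 8 and 5 at 180 min, with medians of -0.06, 0.06 and 0.07. Rbm39 rose by 0.45 (SE 0.05) at 180 min, Rbm33 fell by 0.42 (SE 0.05), and Rbm14, which lies near Rbm4, did not pass (-0.18, SE 0.10). Of 26 hnRNP and PTB genes, whose proteins often oppose SR proteins at exons, 1 rose and 2 fell at 45 min, 7 and 4 at 90 min, and 12 and 4 at 180 min, with medians of 0.01, 0.06 and 0.12. Hnrnpdl (0.85, SE 0.06), Hnrnph1 (0.82, SE 0.07) and Hnrnpll (0.74, SE 0.06) rose at 180 min. Of 42 core spliceosome genes, none rose and 3 fell at 45 min, 6 and 8 at 90 min, and 7 and 8 at 180 min, with medians of 0.02, -0.02 and 0.01, near those of all tested genes. Prpf38b (0.75, SE 0.06) and Prpf39 (0.69, SE 0.07) rose, and Prpf8 (-0.36, SE 0.05) and Snrnp200 (-0.35, SE 0.05), both of the catalytic core's U5 particle, fell.

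Nuclear speckles store SR proteins. A list of 24 tested genes held speckle and related scaffolds and the nuclear RNAs Malat1 and Neat1. Of these 24, 3 rose and 5 fell at 45 min, 13 and 1 at 90 min, and 15 and 1 at 180 min, with medians of -0.04, 0.22 and 0.28. Luc7l3 (0.66 and 0.48, SE 0.06 each), Arglu1 (0.82 at both, SE 0.09 each) and Clasrp (0.67 and 0.85, SE 0.10 each) rose at 90 and 180 min, and the scaffold gene Srrm2 fell (-0.21 and -0.20, SE 0.04 each). Among noncoding nuclear RNAs, Malat1 rose by 0.18, 0.79 and 0.67 (SE 0.05 to 0.06) and Neat1 by 0.41, 1.254 and 1.32 (SE 0.07 each) at 45, 90 and 180 min. Xist measured -0.53, 0.08 and 0.15 (SE 0.06 each), of which the fall at 45 min and the rise at 180 min passed. These RNAs stay in the nucleus, and the part of a larger nuclear share of the RNA in the rises of the 8 genes was not tested. Of 17 genes for nonsense-mediated decay and the exon junction complex, 1 had fallen and none had risen at 45 min, 5 and none at 90 min, and 5 and 2 at 180 min, with medians of -0.02, -0.06 and -0.12. Smg1, the kinase that starts decay, fell at all 3 times, by 0.48, 0.21 and 0.32 (SE 0.05 each), and Upf2 by 0.42 (SE 0.06) at 180 min.

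Promoter sequences from RefSeq were at hand for 9 of the 10 genes, Clk1 being without an entry. The 250 bases before the start are shown for Srsf2, the SR gene with the largest rise, and for Clk4, whose window held a full cyclic AMP response element, both on build GRCm38.p6. Capitals mark, for Srsf2 (chr11:116853095-116853344, minus strand), CCAAT, an EGR site of the form GCGNGGGCG that starts 56 bases before the start, and TATAAA that starts 29 bases before it. For Clk4 (chr11:51262864-51263113, plus strand) they mark TGACGTCA, 65 bases before the start.
Srsf2: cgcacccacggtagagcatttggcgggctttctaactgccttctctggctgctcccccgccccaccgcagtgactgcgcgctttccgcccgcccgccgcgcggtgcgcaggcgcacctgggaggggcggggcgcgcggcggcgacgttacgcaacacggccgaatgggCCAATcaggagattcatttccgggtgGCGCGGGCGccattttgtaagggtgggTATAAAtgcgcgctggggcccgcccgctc
Clk4: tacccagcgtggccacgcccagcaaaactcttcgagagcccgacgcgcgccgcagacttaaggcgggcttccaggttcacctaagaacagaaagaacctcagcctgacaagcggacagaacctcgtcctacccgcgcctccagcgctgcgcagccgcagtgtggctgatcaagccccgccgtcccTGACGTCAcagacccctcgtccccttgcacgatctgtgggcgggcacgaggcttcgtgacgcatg

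Each motif was searched as exact letters on both strands, TATAAA on the gene's strand alone, in the 250 bases before the start of all 32841 RefSeq promoters. A gene of the 9 counted as holding a motif if any of its windows did, while the share of all promoters is by window. TGACGTCA was in the window of 1 of the 9 genes (Clk4) and in 1.55% of all promoters, and its part TGACG in 7 of 9 and in 17.8%; every TGACGTCA also counts as a TGACG. The EGR form GCGNGGGCG was in 2 of 9 (Srsf2 and Rbm4b) and in 4.70%. TATAAA was in 3 of 9 (Srsf2, Srsf3 and Rbm4) and in 7.59%, CCAAT in 4 of 9 and in 33.9%, the GC box GGGCGG in 7 of 9 and in 32.7%, and the ETS core CCGGAAG in 2 of 9 and in 6.91%. A match of letters is a description of the window, and binding was not measured here.

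Srsf2 shares 460 exon bases with Mettl23 and 288 with Mfsd11, both on the opposite strand. Mettl23 did not pass in any comparison (-0.32, SE 0.14, edgeR adjusted p = 0.0702 at 180 min), and Mfsd11 rose by 0.18 (SE 0.06) at 90 min and 0.19 (SE 0.06) at 180 min, beside 0.92 and 1.12 for Srsf2. None of the 50-base windows of Srsf1, Srsf2 or Srsf6 occurred in another annotated gene, while 10.1% of those of Srsf5 and 10% of those of Srsf3 did, mostly in the numbered models Gm12966 and Gm12355.

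Totals per library were 10.7 to 41.7 M counts, with the deepest libraries at 45 min (24.4 to 41.7 M) and shallower ones at 90 min (13.6 to 17.4 M) and 180 min (10.7 to 23.4 M). All 10 macrophage markers were present, summing to between 9843 and 12545 CPM per library. Of 14 T cell markers, which would mark Jurkat RNA counted as mouse, 5 were at 0 in every library (Cd3e, Cd3g, Cd2, Trbc1 and Trbc2), and the list summed to 12.1 to 15.5 CPM alone, 10.3 to 11.5 at 45 min, 10.3 to 12.3 at 90 min and 11.9 to 16.6 at 180 min, most of it Cd28. The T cell gene Cd5 averaged 0.454 CPM alone and 1.79 at 180 min. The list of 6 T cell transcription factors summed to at most 0.935 CPM in any library. The 8 neutrophil markers summed to between 2.26 and 4.43 CPM, and of 6 progenitor markers Flt3 was at 0 throughout, with nearly all of a sum of 19.0 to 33.5 CPM from Hoxb8. Reads of human RNA in the counts of these 10 genes were not tested for directly.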

How the data were processed

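The values are raw gene counts as deposited by the authors, not normalized, in a single table of 16 libraries. STAR 2.7.9a, SAMtools, HTSeq and the build mm39 are named per the submitters' processing notes. The sources used here do not give the strand setting, the annotation release, or what was done with human reads and with reads that fit several genes. Column names gave each library's group and no replicate number, so numbers 1 to 4 are names in file order.

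Symbols came from GENCODE M21, on the build before mm39, and matched 52083 of 55416 IDs; IDs without a symbol held 0.223% to 0.341% of counts. Replicates differed by more than sampling noise (chi-square per degree of freedom 3.86 to 9.73), so each counted as 1 sample. edgeR 4.0.16 in R 4.3.3 was used with its expression filter (minimum count 10, minimum total 15), scaling by trimmed mean of M values, all 16 libraries in 1 quasi-likelihood fit and Benjamini-Hochberg adjustment; the common biological coefficient of variation was 7.81%. Standard errors are the size of the log2 change over the square root of F. CPM values are counts over scaled totals. The test was also tried on counts simulated with the levels and spread of these libraries, for 90 min against alone. It recovered 14 of 50 genes changed 1.25-fold (28%) and 28 of 50 changed 1.5-fold (56%), and called 7 unchanged genes. Far fewer genes were changed in the simulation than were called in the data at 90 min (11.1% higher and 9.97% lower). The adjustment was therefore stricter in the simulation, and its shares recovered do not carry over to the fit used here. A real change of such a size may still fail to pass.

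Alternatives were DESeq2 1.42.0, other scalings and filters, only the 2 groups compared, thinned libraries, coding genes only, each library left out, and, chosen after seeing the data, removal of a trend on length and GC content. The 10 genes and 7 lists (171 entries, 169 tested) were chosen with earlier results of these data known. Named were the 10 genes, up to 4 genes per list and comparison, taken by smallest p, Srsf4, Srsf10, Srsf11, Tra2a, Tra2b, Clk2, Clk3, Srpk1, Srpk2 and Rbm14, and the 3 genes nearest to each of the 10 by root mean square difference of centred log2 CPM (prior count 2). Genes that overlap Srsf2, Rbm4 or Rbm4b were named as well.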

Additional observations from a re-analysis of the deposited data

How the results depend on the processing

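Of 1246 values of the 10 genes under alternatives, 1189 kept direction and side of the threshold, 31 lost and 4 gained a call, and 22 changed sign, none of them called. The number of the 10 genes called ranged over left-out libraries from 3 to 4 (45 min against alone), 7 to 8 (90 min), 8 to 9 (180 min), 8 to 9 (90 against 45 min), 1 to 5 (180 against 90 min), 9 to 10 (180 against 45 min) and 9 to 10 (any change); with only the 2 groups in the fit, it was 2 in place of 4 for 180 against 90 min. Signs changed at 45 min against alone for Srsf1 (-0.0092 in thinned libraries; -0.052 to 0.075 over left-out libraries) and Clk1 (0.10 with the trend removed; -0.0704 to 0.021), for Rbm4b from 45 to 90 min (0.044 thinned; -0.15 to 0.12), for Rbm4 at 180 min (-0.15 to 0.21) and from 90 to 180 min (-0.34 to 0.040), and from 90 to 180 min for Srsf5 (0.0037 with upper-quartile scaling and 0.0038 with the trend removed; -0.038 to 0.026) and Clk4 (-0.042 to 0.10); the cause was not tested. The filter at an average log2 CPM of 3 left Rbm4 and Rbm4b untested. Other scalings moved the median of all genes by at most 0.04. No paired analysis was possible because the table's columns carry no replicate numbers. Single libraries held 54 to 186 counts of Rbm4 and 28 to 167 of Rbm4b, which limits the precision of both.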
